A study of Mus musculus with 24 samples.

Results

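The 10 genes described here encode chemokine ligands: Ccl2, Ccl3, Ccl4, Ccl6, Ccl9, Ccl12, Cxcl10, Cxcl12, Cxcl14 and Cx3cl1. They were taken by symbol, as the 10 of 55416 rows of the count table that carry these names. The names were chosen with earlier results of these data known. RNA was sequenced from brain tissue of neonatal C57BL/6J mice in a model of fetal alcohol spectrum disorders, in which the first postnatal days stand for late human pregnancy. The question was how ethanol changes gene expression soon after exposure begins. The 12 Ethanol animals received ethanol at 4 g/kg/day by intragastric gavage in 20% intralipid, with the first dose on postnatal day 4, and the 12 Vehicle animals received intralipid with water instead of ethanol. All animals, of both groups, were harvested on postnatal day 5 or 6, 24 h after their last treatment, under isoflurane and after perfusion with heparinised saline. Each treatment had 3 males and 3 females at each age. The 6 litters were split between the ages, 3 to each, and every litter gave 1 male and 1 female to Ethanol and the same to Vehicle. Age, sex and litter are not tied to animals by the labels, which give a treatment and an animal number alone. All values are for both ages and sexes together, and an effect of age or sex on a gene cannot be told apart from the spread within a group. The labels call the tissue brain and the study's methods call it cerebellum. All 7 listed cerebellar genes, among them Zic1, En2 and Pcp2, were detected, with a summed level of 1793 to 2308 CPM (the usual counts per library size, here scaled by TMM factors) in Ethanol and 1857 to 2387 CPM in Vehicle (1 gene higher and 1 lower in Ethanol).

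Chemokines are small secreted proteins that draw cells along a gradient by way of G protein-coupled receptors. In the brain, ligands of the CCL family are made mainly by activated microglia, border macrophages and astrocytes, and they act on receptors such as Ccr1 and Ccr2 of myeloid cells. Others belong to normal development: Cxcl12 from the meninges keeps granule cell precursors at the cerebellar surface through Cxcr4, and Cx3cl1, a neuronal ligand held at the membrane until it is shed, signals to microglia through Cx3cr1.

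Libraries held 26982510 to 38804909 estimated counts in Ethanol and 29039869 to 38696572 in Vehicle. A gene was tested if it reached about 10 counts (0.309 CPM) in at least 12 libraries, which 17736 genes did. Of the libraries, 4 were nearly without Ttr, a choroid plexus gene: Ethanol animals X4568 (3.57 CPM) and X4766 (3.42 CPM), and Vehicle animals X4761 (2.61 CPM) and X4770 (1.15 CPM). Ethanol animal X4760 stood apart in inflammatory genes, with the highest level of Il1b (1.21 CPM), Tnf (0.807 CPM), Cxcl1 (1.43 CPM), Ccl7 (1.61 CPM) and Itgam (25.9 CPM) of the 24 libraries. Sorted by number, the animals form 6 runs, each of 2 Ethanol and 2 Vehicle animals, and the labels do not say what a run is.

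Several members lie side by side. In the RefSeq annotation of GRCm38.p6, an earlier build than the GRCm39 the authors used, the protein-coding genes Ccl5, Ccl9, Ccl6, Ccl3 and Ccl4 follow each other on chromosome 11. On the same chromosome Ccl2 is next to Ccl7, and Ccl12 stands between Ccl11 and Ccl8. The 250 bases before the start site are printed for 3 neighbours whose RNA was higher in Ethanol and for Cxcl10, the classic interferon-induced ligand, which was too low to test. Of the 10 members, 8 had such an entry. They are at chr11:83649379-83649628 (Ccl3), chr11:83593088-83593337 (Ccl6), chr11:83578637-83578886 (Ccl9) and chr5:92348890-92349139 (Cxcl10), all on the minus strand, and read 5′ to 3′ towards the gene. Capitals mark matches, on either strand, to the kappaB consensus of NF-kappaB, to the core of the interferon-stimulated response element (GAAA, any 2 bases, GAAA) and to the AP-1 motif TGANTCA, none of which overlap each other here.
Ccl3: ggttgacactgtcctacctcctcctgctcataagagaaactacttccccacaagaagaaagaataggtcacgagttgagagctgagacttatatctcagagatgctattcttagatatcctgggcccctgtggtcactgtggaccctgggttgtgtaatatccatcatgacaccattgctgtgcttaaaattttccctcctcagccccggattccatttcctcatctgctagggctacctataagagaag
Ccl6: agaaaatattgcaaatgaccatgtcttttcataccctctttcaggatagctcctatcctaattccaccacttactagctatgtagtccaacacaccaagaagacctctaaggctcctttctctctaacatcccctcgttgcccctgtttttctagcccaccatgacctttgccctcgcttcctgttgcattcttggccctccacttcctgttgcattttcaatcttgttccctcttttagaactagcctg
Ccl9: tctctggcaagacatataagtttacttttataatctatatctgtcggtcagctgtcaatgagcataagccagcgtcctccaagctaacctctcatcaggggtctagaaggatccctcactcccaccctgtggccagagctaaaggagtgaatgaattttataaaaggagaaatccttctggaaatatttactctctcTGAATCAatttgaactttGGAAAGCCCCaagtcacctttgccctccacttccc
Cxcl10: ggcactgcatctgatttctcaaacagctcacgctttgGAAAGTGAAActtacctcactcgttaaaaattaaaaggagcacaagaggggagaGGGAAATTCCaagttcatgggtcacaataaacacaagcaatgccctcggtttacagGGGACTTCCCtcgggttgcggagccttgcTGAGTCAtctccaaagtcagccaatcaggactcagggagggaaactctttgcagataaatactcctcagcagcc
Cxcl10 held all 3 motifs: a response element match at bases -213 to -204 from the start site, kappaB matches at -159 to -150 and at -103 to -94, and a TGANTCA match at -74 to -68. Ccl9 held TGANTCA at -53 to -47 and a kappaB match on the opposite strand at -35 to -26. Cxcl14 held a response element match at -172 to -163, and Ccl3, Ccl6, Ccl12, Cxcl12 and Cx3cl1 held none of these letters in this window. Among 32851 RefSeq promoters of the same length, 3.9% held a kappaB match, 2.98% a response element match and 6.75% TGANTCA. A match is a description of the letters and not of a bound site.

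Ethanol animals had more RNA of 5 CCL ligands. Ccl3 was 3.29-fold, Ccl2 2.81-fold, Ccl12 2.56-fold, Ccl9 1.59-fold and Ccl6 1.55-fold higher by the ratio of mean CPM, and each passed edgeR's quasi-likelihood test with Benjamini-Hochberg adjustment. Cxcl12 was slightly lower, Cxcl14 and Cx3cl1 did not pass, and Ccl4 and Cxcl10 had too few counts to be tested. So 5 of 8 tested members were higher, where 9.07% of all 17736 tested genes were, and 1 was lower, where 5.8% were (14.9% of all in either direction). Ccl2, and in part Ccl12 and Ccl3, passed the filter on low counts mainly through Ethanol libraries. The members were also chosen with earlier results of these data known. That count is therefore a description and gives no support of its own. In bulk tissue, fewer or more cells of a type cannot be told apart from less or more RNA per cell.

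**Figure D1:**
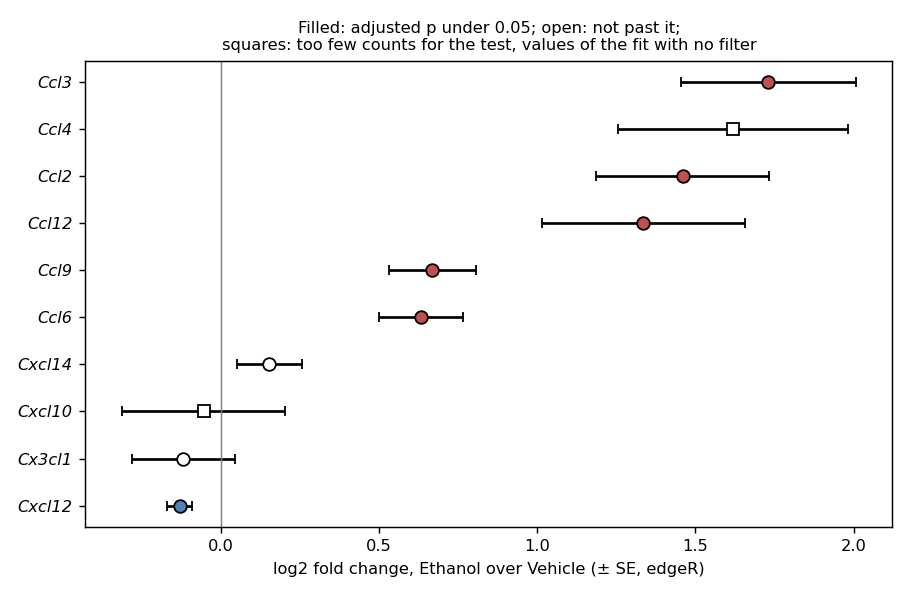
Log2 fold change of each chemokine ligand, Ethanol over Vehicle, with its standard error (edgeR, 12 animals each). Filled symbols passed an adjusted p of 0.05, open ones did not, and squares (Ccl4, Cxcl10) had too few counts for the test and show the fit with no filter. Of the filled symbols, Ccl3 lies farthest right at 1.73 and Cxcl12 is the only one left of 0, at -0.13.

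Ccl2 and Ccl12 are both ligands of Ccr2, the receptor that brings monocytes out of the blood, and Ccl12 is found in mouse and not in human. Ccl2 had 0.244 (lowest), 0.556 (median) and 1.58 CPM (highest) in Ethanol, against 0.0936, 0.252 and 0.400 CPM in Vehicle. Of the Ethanol animals, 10 of 12 were above every Vehicle animal, and only X4765 and X4758 were not. Of the 12 Vehicle animals, 6 were under the lowest Ethanol animal, so the ranges overlapped in part. The mean was 0.690 ± 0.402 CPM in Ethanol and 0.246 ± 0.0920 CPM in Vehicle (SD, n = 12 each), and the log2 fold change was 1.46 (SE 0.27, adjusted p = 0.000685, edgeR). These are low counts, 9 to 46 per Ethanol library and 3 to 14 per Vehicle library, and the level needed for the test was reached by 11 Ethanol and 3 Vehicle libraries. Animal X4760 was the highest; without it the log2 fold change was 1.29 (adjusted p = 0.000999, edgeR).

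Ccl12 had 0.213, 0.625 and 2.60 CPM (lowest, median, highest) in Ethanol, against 0.177, 0.319 and 0.758 CPM in Vehicle. Of the Ethanol animals, 11 of 12 were above the Vehicle median but only 4 were above the highest Vehicle animal, so most of the ranges overlapped. The highest 2 were X4760 (2.60 CPM) and X4758 (1.79 CPM), the Ethanol animals of run 5. The mean was 0.884 ± 0.680 CPM in Ethanol and 0.345 ± 0.148 CPM in Vehicle (SD, n = 12 each). The log2 fold change was 1.34 (SE 0.32, adjusted p = 0.00567, edgeR), from 7 to 71 counts per Ethanol library and 6 to 22 per Vehicle library. Without animal X4760 it was 1.07 (adjusted p = 0.00805, edgeR), and without all 4 animals of run 5 it was 1.04 (adjusted p = 0.00389, edgeR). Ccl12 therefore remained higher without the animals in which it was highest.

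Ccl3 and Ccl4, the macrophage inflammatory proteins 1 alpha and 1 beta, are neighbouring genes, and Ccl3 binds Ccr1. Ccl3 had 0.367, 1.67 and 2.71 CPM in Ethanol (lowest, median, highest), against 0.206, 0.372 and 1.14 CPM in Vehicle. Above every Vehicle animal were 9 of 12 Ethanol animals, and the lowest 2 Ethanol animals were again those of run 5, X4760 (0.367 CPM) and X4758 (0.663 CPM). The mean was 1.58 ± 0.668 CPM in Ethanol and 0.480 ± 0.270 CPM in Vehicle (SD, n = 12 each), and the log2 fold change was 1.73 (SE 0.28, adjusted p = 0.000163, edgeR). Counts were 10 to 105 per Ethanol library and 7 to 35 per Vehicle library. Without run 5 the log2 fold change of Ccl3 was 1.99 (adjusted p = 3.43e-05, edgeR).

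Ccl4 had 0.0313, 0.257 and 0.490 CPM in Ethanol (lowest, median, highest), against 0, 0.0648 and 0.180 CPM in Vehicle. Here 10 of 12 Ethanol animals were above the highest Vehicle animal. These levels are 1 to 17 counts per Ethanol library (104 in all) and 0 to 7 per Vehicle library (33 in all), and only 4 Ethanol libraries and no Vehicle library reached the level needed for the test. Fitted with no filter on low counts, Ccl4 had a log2 difference of 1.62 (SE 0.36, adjusted p = 0.00394, edgeR).

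Ccl6 and Ccl9 are rodent ligands of Ccr1 and lie next to each other on chromosome 11. Ccl6 had 1.92, 2.64 and 4.40 CPM in Ethanol (lowest, median, highest), against 1.23, 1.78 and 2.54 CPM in Vehicle. All 12 Ethanol animals were above the Vehicle median and 7 were above the highest Vehicle animal. The mean was 2.79 ± 0.742 CPM in Ethanol and 1.80 ± 0.370 CPM in Vehicle (SD, n = 12 each). Its log2 fold change was 0.63 (SE 0.13, adjusted p = 0.00177, edgeR), from 57 to 140 counts per Ethanol library and 41 to 79 per Vehicle library.

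Ccl9 had 1.99, 3.18 and 5.34 CPM in Ethanol (lowest, median, highest), against 1.59, 2.08 and 2.74 CPM in Vehicle. Above the highest Vehicle animal were 9 Ethanol animals. Its log2 fold change was 0.67 (SE 0.14, adjusted p = 0.00149, edgeR), with a mean of 3.41 ± 1.03 CPM in Ethanol and 2.15 ± 0.345 CPM in Vehicle (SD, n = 12 each). Both genes shared their extremes in Ethanol. Animal X4674 was highest for Ccl6 (4.40 CPM) and Ccl9 (5.34 CPM), animal X4568 was second for both, and animal X4758 was lowest or next to lowest.

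**Figure D2:**
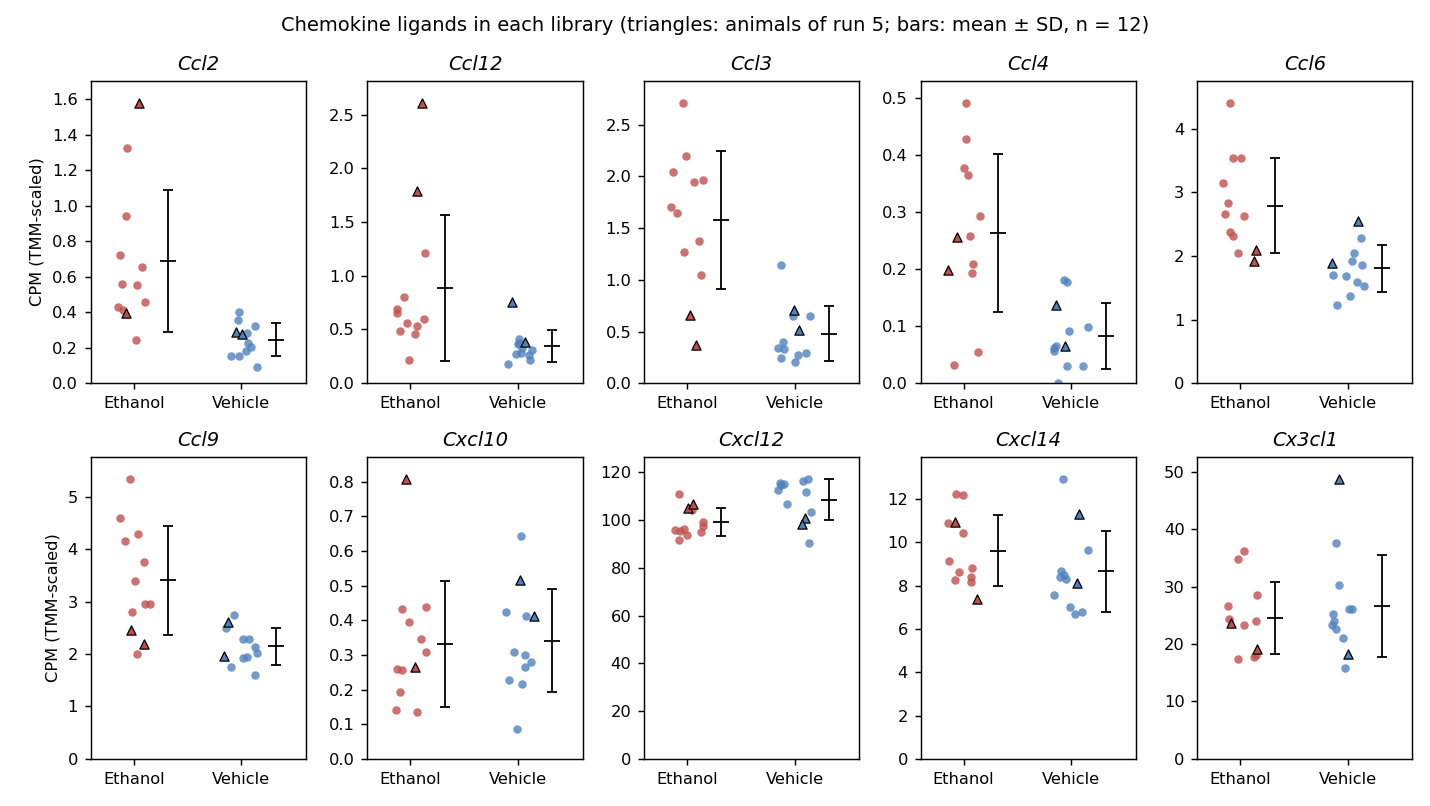
Level of each ligand in every library, in CPM scaled by TMM factors, with Ethanol left of Vehicle and the mean and SD of 12 animals beside the points. Triangles are the animals of run 5. Both Ethanol triangles lie at the top for Ccl12 (2.60 and 1.79 CPM) and at the bottom for Ccl3 (0.367 and 0.663 CPM), and the groups overlap throughout for Cxcl10, Cxcl14 and Cx3cl1.

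Cxcl12, the ligand of Cxcr4 and of the scavenging receptor Ackr3, moved the other way and by little. It had 91.6, 96.8 and 111 CPM in Ethanol (lowest, median, highest), against 90.5, 112 and 117 CPM in Vehicle. All 12 Ethanol animals were under the Vehicle median, and 7 Vehicle animals were above the highest Ethanol animal. The mean was 99.2 ± 5.96 CPM in Ethanol and 109 ± 8.55 CPM in Vehicle (SD, n = 12 each), and the log2 fold change was -0.13 (SE 0.04, adjusted p = 0.0256, edgeR), from 2720 to 3841 counts per Ethanol library and 2859 to 4549 per Vehicle library. The call was lost without Ethanol animal X4765 (-0.12, adjusted p = 0.0537, edgeR), without the 4 libraries low in Ttr (-0.13, adjusted p = 0.0649, edgeR) and without each of runs 1, 2, 3 and 4 in turn (adjusted p = 0.0684, 0.134, 0.0989 and 0.105, edgeR), with the direction kept each time. Some markers of cells known to make Cxcl12 were also lower in Ethanol. Summed endothelial markers were 219 to 257 CPM in Ethanol and 247 to 278 CPM in Vehicle, with 3 of 5 genes past the test and lower, and summed meningeal fibroblast markers were 280 to 478 CPM in Ethanol and 332 to 544 CPM in Vehicle, with 2 of 5 lower. Slc22a6 of the meningeal list was not lower (log2 difference 0.03, SE 0.09, adjusted p = 0.856, edgeR). Over the 24 libraries, with each group's mean removed, Cxcl12 had r = 0.47 with the endothelial sum and 0.43 with the meningeal sum. It had r = 0.58 with the sum of border macrophage genes, of which 4 of 6 were higher in Ethanol. The part of these cells in the change of Cxcl12 was not tested.

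Cxcl14, a ligand made by epithelia and some neurons, had 7.39, 8.97 and 12.2 CPM in Ethanol (lowest, median, highest), against 6.71, 8.34 and 12.9 CPM in Vehicle. The log2 difference was 0.15 (SE 0.10, adjusted p = 0.35, edgeR), and the groups overlapped throughout. Cx3cl1 had 17.5, 23.8 and 36.2 CPM in Ethanol (lowest, median, highest), against 15.8, 24.6 and 48.7 CPM in Vehicle. Its log2 difference was -0.12 (SE 0.16, adjusted p = 0.693, edgeR), smaller than its standard error. Most of the Cx3cl1 difference came with 1 animal: without Vehicle animal X4762, the highest, it was -0.01. In each group the lowest 2 animals for Cx3cl1 were those low in Ttr: X4766 (17.5 CPM) and X4568 (17.7 CPM) in Ethanol, and X4770 (15.8 CPM) and X4761 (18.3 CPM) in Vehicle. Without these 4 animals the Cx3cl1 difference was -0.13 (SE 0.16, adjusted p = 0.656, edgeR).

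Cxcl10, a ligand of Cxcr3 that interferons induce, stayed at the edge of detection in both groups. It had 0.135, 0.287 and 0.807 CPM in Ethanol (lowest, median, highest), against 0.0858, 0.304 and 0.644 CPM in Vehicle, or 4 to 22 counts per Ethanol library and 3 to 25 per Vehicle library. It reached the level for testing in 11 libraries, 6 Ethanol and 5 Vehicle, where 12 were needed. Fitted with no filter its log2 difference was -0.05 (SE 0.26, adjusted p = 0.943, edgeR). With each animal left out in turn, the log2 difference of Cxcl10 was -0.25 to 0.08, so its sign turned on single animals. That range holds ratios of mean CPM, or edgeR fold changes where Cxcl10 then reached the level for testing. In those fits Cxcl10 did not pass (adjusted p of at least 0.553, edgeR). The highest Ethanol value was that of animal X4760. In a GENCODE set of mouse transcripts, 2.47% of the 75-base windows of Cxcl10 are shared with Art3 on the opposite strand. The other 9 members shared none with another gene. That set is neither the RefSeq annotation above nor matched to the authors' annotation release, which is not given.

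Within the 6 runs of animal numbers, Ccl2, Ccl4, Ccl9 and Ccl12 had higher mean levels in Ethanol in all 6. The log2 ratio of mean CPM ran over 0.60 to 1.91 for Ccl2, 0.62 to 1.94 for Ccl12, 0.35 to 3.02 for Ccl4 and 0.02 to 1.25 for Ccl9. Ccl3 and Ccl6 were higher in 5 runs and not in run 5, where their ratios were -0.25 and -0.14. Run 5 was thus the one with the highest ratio for Ccl12 (1.94) and the lowest for Ccl3, Ccl6 and Ccl9, a contrast that was noticed after the values were seen and whose difference from the other runs was not tested. Cxcl12 was lower in 5 of 6 runs, with ratios of -0.29 to 0.08. Cxcl10 and Cx3cl1 were higher in 3 runs and lower in 3.

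**Figure D3:**
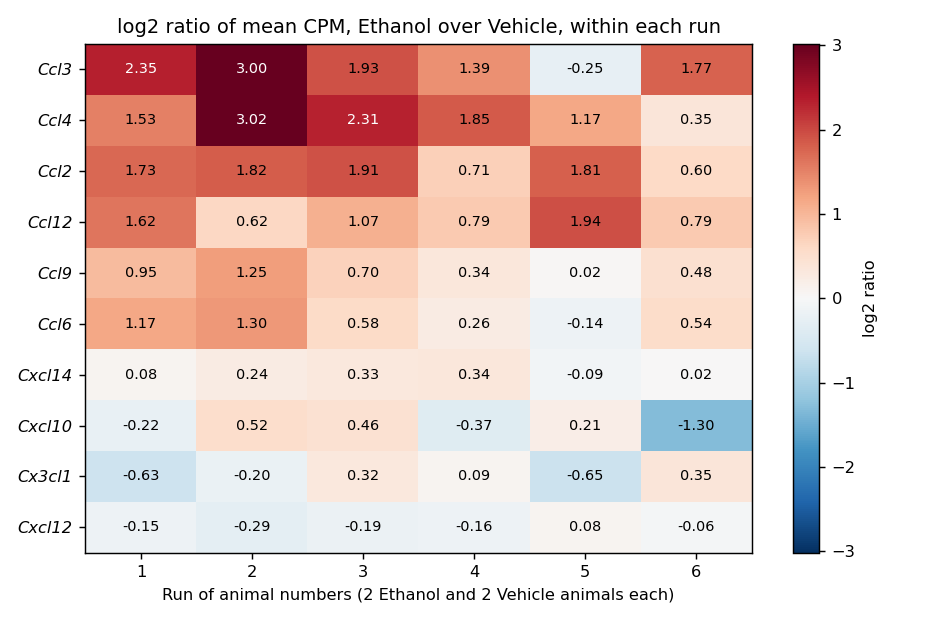
Log2 ratio of mean CPM, Ethanol over Vehicle, of each ligand (rows) within each of the 6 runs of animal numbers (columns), 2 animals per treatment in a run. Red is higher in Ethanol and blue lower. The column of run 5 is red for Ccl12 (1.94) and Ccl2 (1.81) and pale blue for Ccl3 (-0.25) and Ccl6 (-0.14).

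Among animals of the same treatment, few pairs of ligands were correlated. Of 28 pairs of the 8 tested members per group, 3 were correlated in Ethanol and 1 in Vehicle (Pearson's r of log2 CPM, permutation test with 100000 resamples, two-sided, Benjamini-Hochberg adjusted over all 56). In Ethanol, Ccl6 and Ccl9 varied together, with r = 0.854 (permutation p = 0.00056, adjusted 0.0157) and rho = 0.853 (permutation p = 0.00084, adjusted 0.0235). Ccl12 went with Cxcl12, with r = 0.834 (permutation p = 0.0005, adjusted 0.0157) and rho = 0.853 (permutation p = 0.00077, adjusted 0.0235). Without the 2 animals farthest from the median of the x axis, r was 0.749 for Ccl6 with Ccl9 and 0.826 for Ccl12 with Cxcl12. Both pairs held by either measure.

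The other relations were less firm. Cxcl14 with Cx3cl1 in Ethanol had r = 0.778 (permutation p = 0.00356, adjusted 0.0498) but rho = 0.741 (permutation p = 0.00785, adjusted 0.147), and r = 0.672 without the 2 farthest animals. Ccl3 with Ccl12 in Ethanol had r = -0.760 (permutation p = 0.00564, adjusted 0.0632) and rho = -0.503 (permutation p = 0.0997, adjusted 0.375), and without the 2 farthest animals r was -0.168, so the relation rests on them. In Vehicle, Cxcl12 with Cxcl14 had r = -0.826 (permutation p = 0.00116, adjusted 0.0217) but rho = -0.622 (permutation p = 0.0335, adjusted 0.263), and r = -0.460 without the 2 farthest. In Vehicle, r was 0.468 for Ccl6 with Ccl9 and -0.462 for Ccl12 with Cxcl12, and whether Ethanol and Vehicle differ in these was not tested. A run holds 2 animals per treatment, too few for r within runs, and animals of 1 litter are not fully independent.

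**Figure D4:**
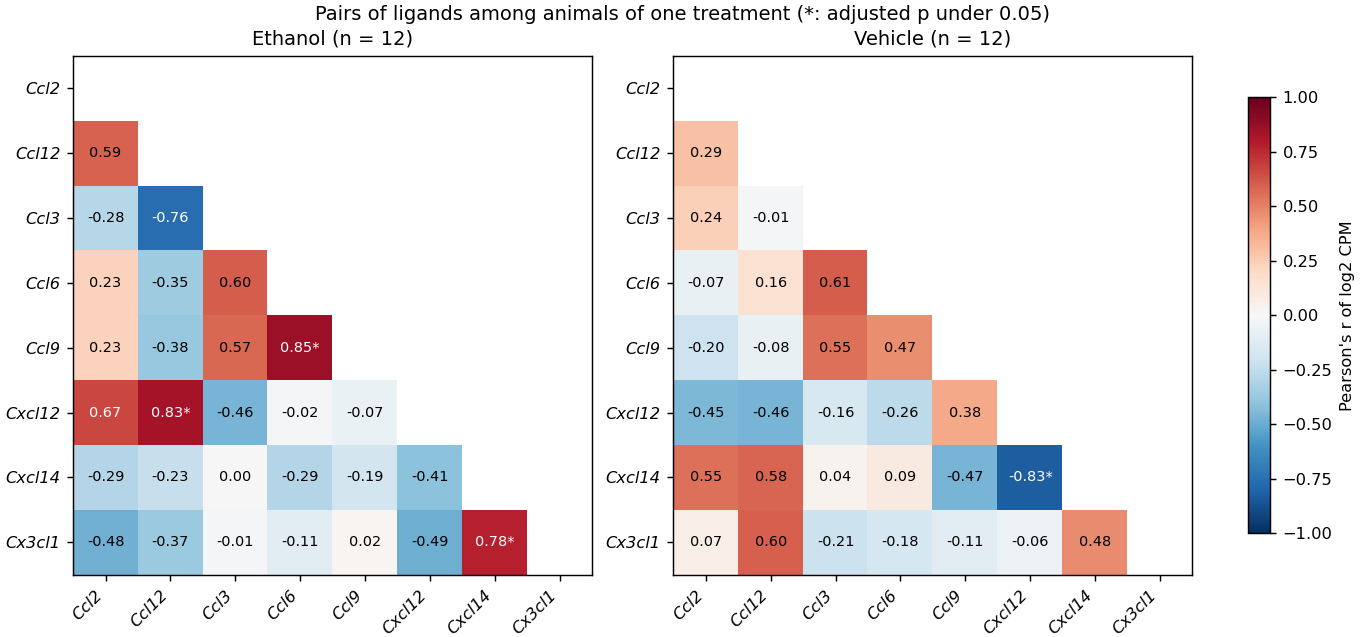
Pearson's r of log2 CPM for each pair of the 8 tested ligands among the 12 Ethanol animals (left) and the 12 Vehicle animals (right), with an asterisk where the adjusted permutation p was under 0.05. Ccl6 with Ccl9 (0.85) and Ccl12 with Cxcl12 (0.83) stand out in Ethanol, and Cxcl12 with Cxcl14 (-0.83) in Vehicle.

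Across all 24 libraries, with each group's mean removed, the genes most like each ligand were ranked among 15415 genes of at least 1 CPM on average (for members above that level, the other 15414). Nearest to Ccl12 were Ptprc (r = 0.88), which encodes the leukocyte marker CD45, Ms4a6c (0.86) and Ms4a6d (0.85). Nearest to Ccl9 were Lpl (0.85), the lipoprotein lipase, and Plau (0.83), the urokinase plasminogen activator. Lpl was also among the nearest 3 of Ccl6 (0.81) and Ccl3 (0.70). The very nearest were Zfp868 (0.81) for Ccl6 and Tiam2 (0.70) for Ccl3. None of the nearest 3 of Ccl12 was among the nearest 3 of Ccl3, Ccl6 or Ccl9. Such short lists from so many genes need not coincide, and a difference between the ligands was not tested. Lpl itself was higher in Ethanol, by 0.53 on the log2 scale (SE 0.11, adjusted p = 0.00272, edgeR).

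Nearest to Cxcl12 were Emp1 (r = 0.81), Amotl1 (0.80) and Ngfr (0.80). Cxcl14 was nearest to the neuronal genes Cabp7 (0.91) and Eno2 (0.90). Cx3cl1 was nearest to Sv2c (0.97), a synaptic vesicle protein, then to Lypd6b (0.92) and Reep5 (0.91). Nearest to Ccl2, whose counts are low, was Fam214a (0.72). All of these are descriptions over 24 libraries that share depth, run and tissue makeup.

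The receptors described here did not pass the test or were too low for it. Ccr1, the receptor of Ccl3, Ccl6 and Ccl9, averaged 1.45 ± 0.430 CPM in Ethanol and 1.11 ± 0.309 CPM in Vehicle (SD, n = 12 each) and did not pass (log2 difference 0.38, SE 0.16, adjusted p = 0.108, edgeR). Cx3cr1, on microglia, averaged 29.0 ± 3.77 CPM in Ethanol and 26.2 ± 3.61 CPM in Vehicle (0.15, SE 0.07, adjusted p = 0.169, edgeR). Cxcr4 averaged 58.4 ± 7.15 CPM in Ethanol and 54.1 ± 5.64 CPM in Vehicle (0.11, SE 0.06, adjusted p = 0.259, edgeR). The Ethanol and Vehicle ranges of these receptors overlapped. Ackr3 likewise did not pass (0.09, SE 0.07, adjusted p = 0.443, edgeR). Ccr2, the receptor of Ccl2 and Ccl12, had too few counts, with mean levels of 0.209 CPM in Ethanol and 0.220 CPM in Vehicle, and so did Cxcr3, with 0.141 CPM in Ethanol and 0.135 CPM in Vehicle.

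**Figure D5:**
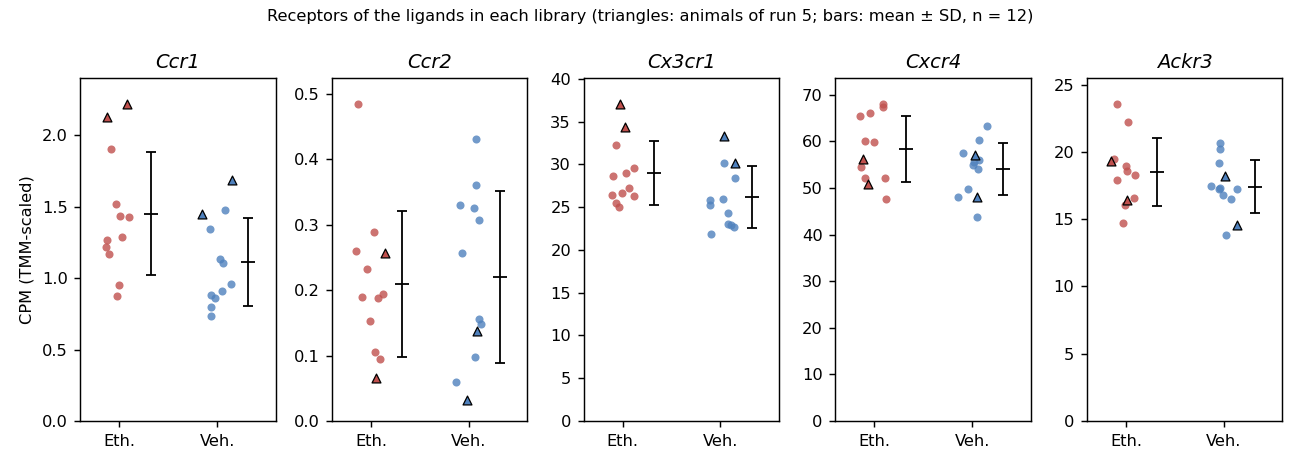
Level of 5 receptors of the ligands in every library, in CPM scaled by TMM factors, with Ethanol left of Vehicle, the mean and SD of 12 animals beside the points, and triangles for the animals of run 5. The groups overlap for all 5, as for Cxcr4, with means of 58.4 CPM in Ethanol and 54.1 CPM in Vehicle.

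The rest of the chemokine system mostly did not pass the test or was too low for it. Of 28 other ligands 7 were tested and 1 passed. It was Ccl25, a ligand of Ccr9 known from thymus and gut, with 5.17, 6.50 and 7.16 CPM in Ethanol (lowest, median, highest), against 4.62, 5.57 and 6.03 CPM in Vehicle. Its log2 fold change was 0.23 (SE 0.06, adjusted p = 0.00879, edgeR), and 9 Ethanol animals were above the highest Vehicle animal. The other 21 had mean levels of at most 0.353 CPM in either group, and 2 of them had no count.

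Of 6 enzymes that shed or trim chemokines, 5 were tested and 2 were lower in Ethanol. Dpp4, a peptidase that inactivates Cxcl12, averaged 3.61 ± 0.767 CPM in Ethanol and 4.87 ± 0.932 CPM in Vehicle (SD, n = 12 each), and the log2 fold change was -0.43 (SE 0.12, adjusted p = 0.0148, edgeR). All 12 Ethanol animals were under the Vehicle median for Dpp4, and the call was lost without run 3 (adjusted p = 0.0685, edgeR). Mmp2, a metalloproteinase that also cuts Cxcl12, averaged 12.9 ± 1.95 CPM in Ethanol and 16.1 ± 3.28 CPM in Vehicle, and the log2 fold change was -0.32 (SE 0.10, adjusted p = 0.0357, edgeR). The Mmp2 call was lost with 12 of 24 animals left out in turn. Adam10 and Adam17, which shed Cx3cl1, did not pass (log2 difference of -0.06 and about 0, adjusted p = 0.41 and 0.941, edgeR).

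None of the 5 atypical receptors passed edgeR's test, also at an unadjusted p of 0.05 (0 higher and 0 lower). None of the 6 inducing cytokines had enough counts. Mean levels were 0.383 CPM in Ethanol and 0.217 CPM in Vehicle for Il1a, 0.220 CPM in Ethanol and 0.0606 CPM in Vehicle for Il1b, and 0.193 CPM in Ethanol and 0.0848 CPM in Vehicle for Tnf. Animal X4760 was the highest library for each, and without it the Ethanol means of the other 11 animals were 0.314 CPM for Il1a, 0.130 CPM for Il1b and 0.137 CPM for Tnf.

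Markers of the cells that make or bear chemokines also differed between the groups, and their part in the changes of the CCL ligands was not tested. Of 10 microglial genes 3 were higher and 2 lower in Ethanol, and their summed level was 153 to 248 CPM in Ethanol and 149 to 200 CPM in Vehicle. The lower ones, P2ry12 and Siglech, are known as genes of resting microglia, with log2 fold changes of -0.53 and -0.77. Of 6 border macrophage genes 4 were higher (Cbr2, Cd163, F13a1 and Mrc1), and their summed level was 37.3 to 87.8 CPM in Ethanol and 34.3 to 52.9 CPM in Vehicle. Of 5 genes of astrocytes and Bergmann glia, Gfap and Aqp4 were higher and Gdf10 lower. Of 6 monocyte and neutrophil genes 3 were tested and none passed, with a summed level of 1.16 to 11.3 CPM in Ethanol and 1.14 to 9.26 CPM in Vehicle. The tested ones averaged 1.31 CPM (S100a8), 2.03 CPM (S100a9) and 0.444 CPM (Plac8) in Ethanol. In Vehicle they averaged 1.12, 1.66 and 0.477 CPM. Of the untested ones, Ly6g (0.0108 CPM in Ethanol and 0.0146 CPM in Vehicle) and Ly6c2 (0.0676 CPM in Ethanol and 0.0685 CPM in Vehicle) were near 0 in both groups. Summed marker levels were also set against the ligands over the 24 libraries, with each group's mean removed, as descriptions. The microglial genes had r = 0.55 with Ccl12 and r = -0.60 with Ccl9. The 3 tested monocyte and neutrophil genes had much the same, r = 0.54 with Ccl12 and r = -0.50 with Ccl9. The border macrophage genes had r = 0.47 with Ccl12 and r = 0.12 with Ccl9. None of 6 choroid plexus and 4 blood genes passed edgeR's test, with 1 blood gene lower at an unadjusted p of 0.05. No marker of any list was at 0 in every library.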

How the data were processed

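The authors deposited estimated counts for each gene, made with nf-core/rnaseq 3.4. STAR, Salmon, limma and GRCm39 are named in the submitters' processing notes. The annotation release is not given in the sources used here, nor is the strand setting. Counts were rounded first, since 10.92% of values were more than 0.01 from a whole number. Of the rows, 1597 repeat an earlier name and were kept apart, and 0 columns were left unmapped. Each library is 1 animal by label, and no source ties an animal number to age, sex or litter.

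Genes were filtered with filterByExpr, scaled with TMM factors of 0.982 to 1.01, and fitted in edgeR 4.0.16 (robust glmQLFit, glmQLFTest, 22 residual degrees of freedom, R 4.3.3) over all 17736 genes, with Benjamini-Hochberg adjustment and a threshold of 0.05. Standard errors (SE) were derived from the F statistic. Log2 CPM used a prior count of 2. Correlations were tested by permutation in Python 3.11.15 (numpy 2.4.6, pandas 2.3.3, scipy 1.17.1), and plots were drawn with matplotlib 3.10.9. The test was checked on simulated data, counts with known fold changes at the means and library sizes of these animals. Genes named were all 10 members, each gene past the test in the pathway lists, each receptor of a member, and the nearest 3 genes of each tested member by correlation, from which the text draws. Not every listed gene is reported here. Members and lists were chosen with earlier results of these data known. Animals X4760 and X4758, run 5, the cytokines and the marker genes were singled out after their values were seen.

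Alternatives were DESeq2 1.42.0, limma-trend and limma-voom (limma 3.58.1), RLE and upper-quartile scaling, no filter, a filter at 1 CPM in 12 libraries (the stricter filter), a block for the runs of animal numbers, leaving out each animal and each run, a prior count of 0.5, and Spearman's rho. Leaving out the 4 libraries low in Ttr, and Ethanol animal X4760 for the cytokines, was added after the data were seen. Ccl2, Ccl4, Ccl12 and Cxcl10 had the fewest counts, with 0 to 6 in the lowest library of each. RefSeq sequences are of GRCm38.p6, and no coordinates were converted between builds.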

Additional observations from a re-analysis of the deposited data

How the results depend on the processing

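The count of 5 higher members was 2 with the stricter filter, under which only 5 members were tested, and 6 with no filter, which let Ccl4 in. It was 5 to 5 when each animal was left out in turn. The count of 1 lower member (Cxcl12) was 0 without each of run 1, run 2, run 3 and run 4 and 0 without the 4 libraries low in Ttr, and 0 to 1 when each animal was left out, with 0 without Ethanol animal X4765. The 1 correlated pair in Vehicle became 0 with Spearman's rho. No member tested in the main fit changed direction. Cxcl10, untested there, did: its log2 ratio of mean CPM was -0.04, and 0.20 without the libraries low in Ttr. With each animal left out it was -0.25 to 0.08, as that ratio or as edgeR's fold change where Cxcl10 was tested. With each animal left out, log2 fold changes were 1.29 to 1.55 for Ccl2, 1.63 to 1.91 for Ccl3, 1.07 to 1.49 for Ccl12, 0.59 to 0.72 for Ccl9 and 0.56 to 0.69 for Ccl6, and all stayed past the threshold under every alternative that tested them. Over all genes, 1028 were lower; 662 were with no filter, 616 without run 1, 612 without run 3, 499 without run 4 and 612 without the libraries low in Ttr. Upper-quartile scaling gave 1373 higher and 1396 lower (49.6% of calls higher, against 61% with TMM). The labels pair no animals across groups. The nearest to a matched fit, which blocks on the animal-number runs, kept 5 members higher and 1 lower, and over all genes called 1982 higher and 1363 lower, against 1608 and 1028 without the block. The cause of these changes was not tested. Low counts limit Ccl2, Ccl4, Ccl12 and Cxcl10.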
